A study of Rattus norvegicus with 8 samples.

Results

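Genes tied to human body weight by association or by rare variants were followed in the rat hypothalamus. The 8 genes were Fto, Cadm1, Cadm2, Tmem18, Sh2b1, Bdnf, Ntrk2 and Adcy3, and every polyadenylation site that the expression table assigned to one of these symbols was taken. This gave 141 of the 73922 sites in the table, from 7 of the 8 genes. Tmem18, which encodes a transmembrane protein of the nuclear envelope, had no listed site. The table held only sites with at least 30 reads over all libraries, so a gene with fewer reads at each of its sites would not appear in it.

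Hypothalamic tissue came from adult male rats of the outbred Long-Evans strain. The control group of 4 was fed standard rodent chow with 0.51 kcal/g from fat, and the obesity group of 4 had free access to a high fat diet with 1.71 kcal/g from fat, both for 36 days. Whole transcriptome termini site sequencing (WTTS-seq) reads the 3′ ends of polyadenylated RNA, so each value is a count of RNA ends at a site and is not scaled by transcript length. The labels name diet-induced obesity as the state of the obesity group, and body weights were not analysed here.

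Of these genes, Bdnf and Ntrk2 act in one signalling route of the hypothalamus. Bdnf encodes a secreted neurotrophin that binds the receptor tyrosine kinase TrkB, the product of Ntrk2, and loss of either leads to overeating and weight gain in rodents and people. Ntrk2 is known for alternative 3′ ends, which give full-length receptors and truncated receptors without the kinase domain. Sh2b1 encodes an adaptor that binds JAK2 and acts in leptin and insulin receptor signalling. Adcy3 encodes an adenylyl cyclase of neuronal primary cilia that makes cAMP. Fto encodes a demethylase of N6-methyladenosine in RNA, and Cadm1 and Cadm2 encode immunoglobulin-type adhesion molecules of synapses.

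The libraries held 1417531 to 1742565 reads in the control group and 1455017 to 1957726 in the obesity group. Sites without a read numbered 14788 in control library 1 and 4062 to 4699 in the other control libraries. They numbered 10659 in obesity library 1 and 5766 to 6622 in the other obesity libraries. The cause of this was not tested. Of 13 hypothalamic neuron genes used as markers, 12 had listed sites, and their summed level was 1242 to 1676 CPM (read counts per 1000000 mapped reads after TMM scaling) in control and 1019 to 1291 CPM in obesity. Avp alone had 814 to 1199 CPM in control and 608 to 825 CPM in obesity. At an unadjusted p under 0.05 in edgeR, 1 of the 12 was higher and 3 lower, against 2.54% and 2.58% of all genes. With the number of the library as a block (below), 1 was higher and 4 lower, against 4.76% and 6.16%. Among markers of other tissue, 3 of 6 anterior pituitary genes had sites and summed to 17.9 to 56 CPM in control and 6.13 to 127 CPM in obesity. The highest of these values came from obesity library 2, with 87 reads of Gh1 and 58 of Lhb. Prl, Tshb and Pou1f1 had no listed site. Of 5 choroid plexus genes, Ttr alone had a site, with 0 to 1.52 CPM in control and 0 to 98 CPM in obesity, where obesity library 4 held 144 reads. Oligodendrocyte genes (11 of 11 listed) summed to 17729 to 23180 CPM in control and 13684 to 21504 CPM in obesity. Mbp alone had 13076 to 18022 CPM in control and 10113 to 16715 CPM in obesity. Astrocyte genes (8 of 8 listed) summed to 3453 to 4652 CPM in control and 2533 to 3966 in obesity, and microglial genes (3 of 6) to 74.4 to 115 and 30 to 101. In the astrocyte list S100b alone had 1210 to 2278 CPM in control and 857 to 2103 CPM in obesity. The log2 fold change lay above 0 in 0 of 11 oligodendrocyte, 2 of 8 astrocyte, 1 of 3 microglial and 4 of 12 hypothalamic neuron genes. The medians were -0.18, -0.21, -0.06 and -0.16, against 0.00 over all genes. Of the oligodendrocyte, astrocyte and microglial genes, 2, 1 and 1 were lower at an unadjusted p under 0.05 in edgeR, against 2.58% of all genes. Of these lists 0 genes were higher at that limit, against 2.54%. With the block 3, 1 and 1 were lower, against 6.16%, and 0 higher, against 4.76%. Thalamic genes (6 of 6) summed to 138 to 235 and 91.6 to 257 CPM, cortical and hippocampal genes (2 of 7) to 72.3 to 135 and 107 to 166, and red blood cell genes (2 of 5) to 19.4 to 46.3 and 15 to 64. Midbrain dopamine neuron genes (4 of 9, without Slc6a3, En1, Pitx3, Foxa2 and Lmx1b) summed to 47.5 to 77.9 CPM in control and 17.7 to 58 in obesity. Of these 4, Slc18a2 had a log2 fold change above 0 (0.59), and Ddc (-0.2), Nr4a2 (-2.1) and Th (-1.69) lay below 0. With the same block, 1 marker gene of all these lists passed an adjusted p of 0.1, against 0.277% of all genes. This was the dopamine synthesis gene Th. It had 68, 46, 47 and 52 reads in control libraries numbered 1 to 4 and 12, 12, 47 and 2 in obesity (edgeR log2 fold change -1.69, adjusted p 0.921, and with the block -1.98, adjusted p 0.088). Dopamine neurons also lie in the hypothalamus, and whether the Th reads came from these or from midbrain was not tested. The part of these marker genes in the results below was not tested. In whole tissue, fewer cells of a type and less RNA per cell cannot be told apart.

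Control and obesity libraries both carry the numbers 1 to 4, and libraries with the same number resembled each other. Sites with 10 or more reads in each of 2 libraries and 0 in the other 6 numbered 116 in the whole table. Of these, 115 (99.1%) fell in the 4 pairs made of a control and an obesity library with the same number. The 24 other pairs together held 1. The pairs numbered 1 to 4 held 8, 36, 20 and 51 such sites. The obesity-locus genes held 3 of them, all in the pair numbered 4. A Cadm1 site on chromosome 8 (52035932 to 52035941) had 18 reads in control library 4 and 32 in obesity library 4, and a Cadm1 site at 52198643 to 52198647 had 10 and 31. A Fto site on chromosome 19 (17103249 to 17103252) had 22 and 45. What a number shares is not in the labels, and the cause of this pattern was not tested. Fits with the number as a block are therefore given beside those without it where they change a call or a count.

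**Figure D1:**
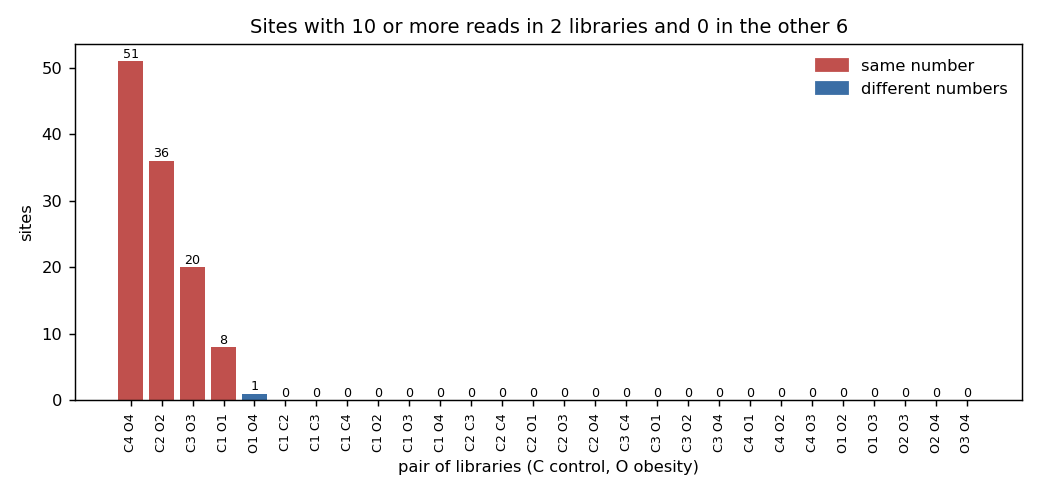
Number of polyadenylation sites (y axis) with 10 or more reads in each of 2 libraries and 0 in the other 6, for each of the 28 pairs of libraries (x axis, C for control and O for obesity, followed by the library number). The 4 same-number pairs hold 115 sites, and the 24 other pairs hold 1.

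Over the 141 sites, 0 differed between obesity and control at an adjusted p of 0.1 (edgeR quasi-likelihood test, Benjamini-Hochberg over all sites), against 0.00135% of all sites. With the block 0 passed, against 0.00541% of all sites. The DESeq2 Wald test called 0 of the 141, against 0.038% of all sites it adjusted. At an unadjusted p under 0.05, 7 sites passed, a share of 4.96% against 3.14% of all sites. Of these, 4 were higher in obesity, against 1.72% of all sites, and 3 lower, against 1.41%. With the block 17 passed, a share of 12.1% against 6.09%, with 8 higher (against 2.79%) and 9 lower (against 3.31%). By DESeq2 12 passed, 8.51% against 3.86%. The groups did not overlap at 6 sites, which is 4.26% against 3.11% of all sites, with 2 higher (against 1.43%) and 4 lower (against 1.69%). The median log2 fold change was 0.28 over the 141 sites and 0.05 over all sites. Many of the 141 sites share a gene and are not independent.

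At gene level, where the sites on the strand with most reads were summed, 0 of 7 genes passed (edgeR adjusted p under 0.1), as did 0% of the 12255 genes. DESeq2 called 0 of 7, against 0.0327% of genes. At an unadjusted p under 0.05, 0 of 7 passed by edgeR, against 5.12% of all genes, and 0 of 7 by DESeq2, against 5.89%. With the block 3 of 7 passed that limit, against 10.9% of all genes. Adcy3 and Cadm1 were higher, against 4.76% of all genes, and Bdnf was lower, against 6.16%. The adjusted threshold was passed by 0 of 7 with the block, against 0.277%. The median log2 fold change was 0.27 over the 7 genes and 0.00 over all genes. In 0 of the 7 genes were the groups free of overlap, against 3.45% of all genes.

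The 7 genes covered a wide range of abundance. Ntrk2 was the most abundant, at 943 to 1262 CPM in control, above 99.2% of genes in its mean over all libraries. Cadm1 followed at 258 to 472 CPM (above 96.9% of genes), then Fto at 123 to 182 (91.6%), Cadm2 at 87 to 121 (86.5%), Adcy3 at 29.3 to 86.4 (81.6%), Sh2b1 at 16.7 to 45.5 (64.2%) and Bdnf at 2.01 to 12.9 (12.3%). In control, the ranges of Adcy3 and Sh2b1 overlapped and those of the other neighbours in this order did not. In obesity, the range of Adcy3 (32.5 to 269 CPM) overlapped those of both Cadm2 (64.4 to 155) and Sh2b1 (18.7 to 48.3). Long genes with many sites collect reads at each, so this order is one of summed 3′ ends.

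**Figure D2:**
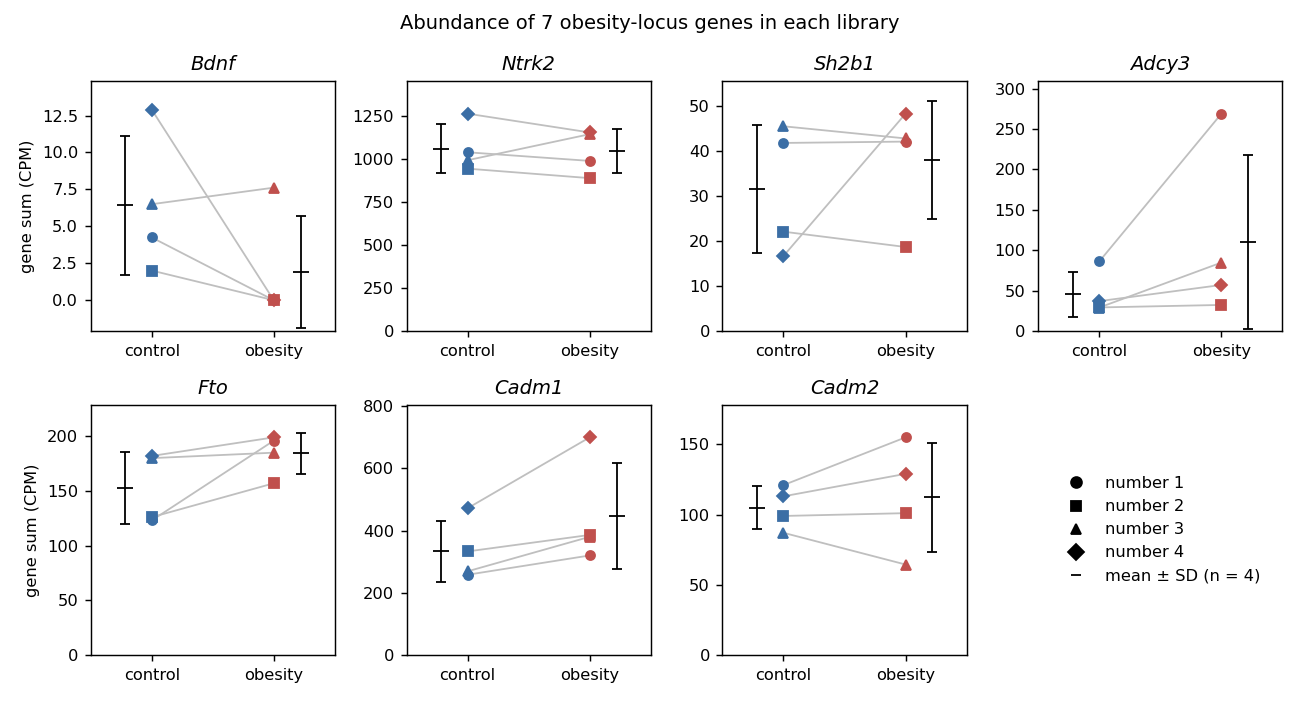
Gene sums in CPM (y axes, each with its own scale) for 7 genes in the 4 control (blue) and 4 obesity (red) libraries. Grey lines join libraries with the same number, and black bars give the mean ± SD (n = 4). The obesity library lies above the control library of its number in 4 of 4 pairs for Adcy3, Fto and Cadm1, while the groups overlap for all 7 genes.

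Bdnf, the ligand, rested on a single listed site on chromosome 3 (plus strand, 100816669 to 100816676). Here and below, reads are listed in the order of the library numbers 1 to 4. It had 6, 3, 8 and 17 reads in control and 0, 0, 13 and 0 in obesity. Obesity library 3 lay within the control range, and the other obesity libraries held no read. With 3 counts taken as the upper limit of a count of 0, those libraries allow up to 2.04 to 2.44 CPM, near the lowest control value of 2.01 CPM. The means were 6.42 ± 4.71 CPM in control and 1.9 ± 3.81 CPM in obesity (SD, n = 4), with a log2 fold change of -1.62 (95% interval -4.16 to 0.91, edgeR adjusted p 0.942). With the block the log2 fold change was -2.8 (unadjusted p 0.0441, edgeR adjusted p 0.438). Without obesity library 3 the group is at 0 throughout, and the fitted value then has no lower limit set by the data.

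Ntrk2, which encodes the Bdnf receptor, had the most sites of the set, with 51 on the minus strand of chromosome 17 between 5932958 and 6238786, a span of 306 kb. Its summed reads were 1466, 1410, 1221 and 1661 in control and 1316, 1094, 1951 and 1694 in obesity. The means of 1059 ± 141 and 1043 ± 128 CPM (SD, n = 4) differed by a log2 fold change of -0.02, with a 95% interval of -0.4 to 0.36 (edgeR adjusted p 0.996).

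The reads of Ntrk2 were concentrated in the middle of the gene. The leading site (6117537 to 6117555) held 31% of its reads and the second (6117498 to 6117511) 15.3%, both 185 kb before the last listed site and 25 bases apart. The third site (5933749 to 5933777), within 0.781 kb of the last one, held 7.87%. Within 5 kb of the last site lay 13.3% of the reads. The table assigns the sites to 3 transcript records, which are named here as in the table, and which protein form each record encodes was not analysed here. Record rna60085, in the middle, had 9 sites between 6114594 and 6119214 with 62.4% of the reads. Record rna60079 had 37 sites along the gene with 27.3%, and record rna60082 had 5 sites at the 3′ end with 10.4%.

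**Figure D3:**
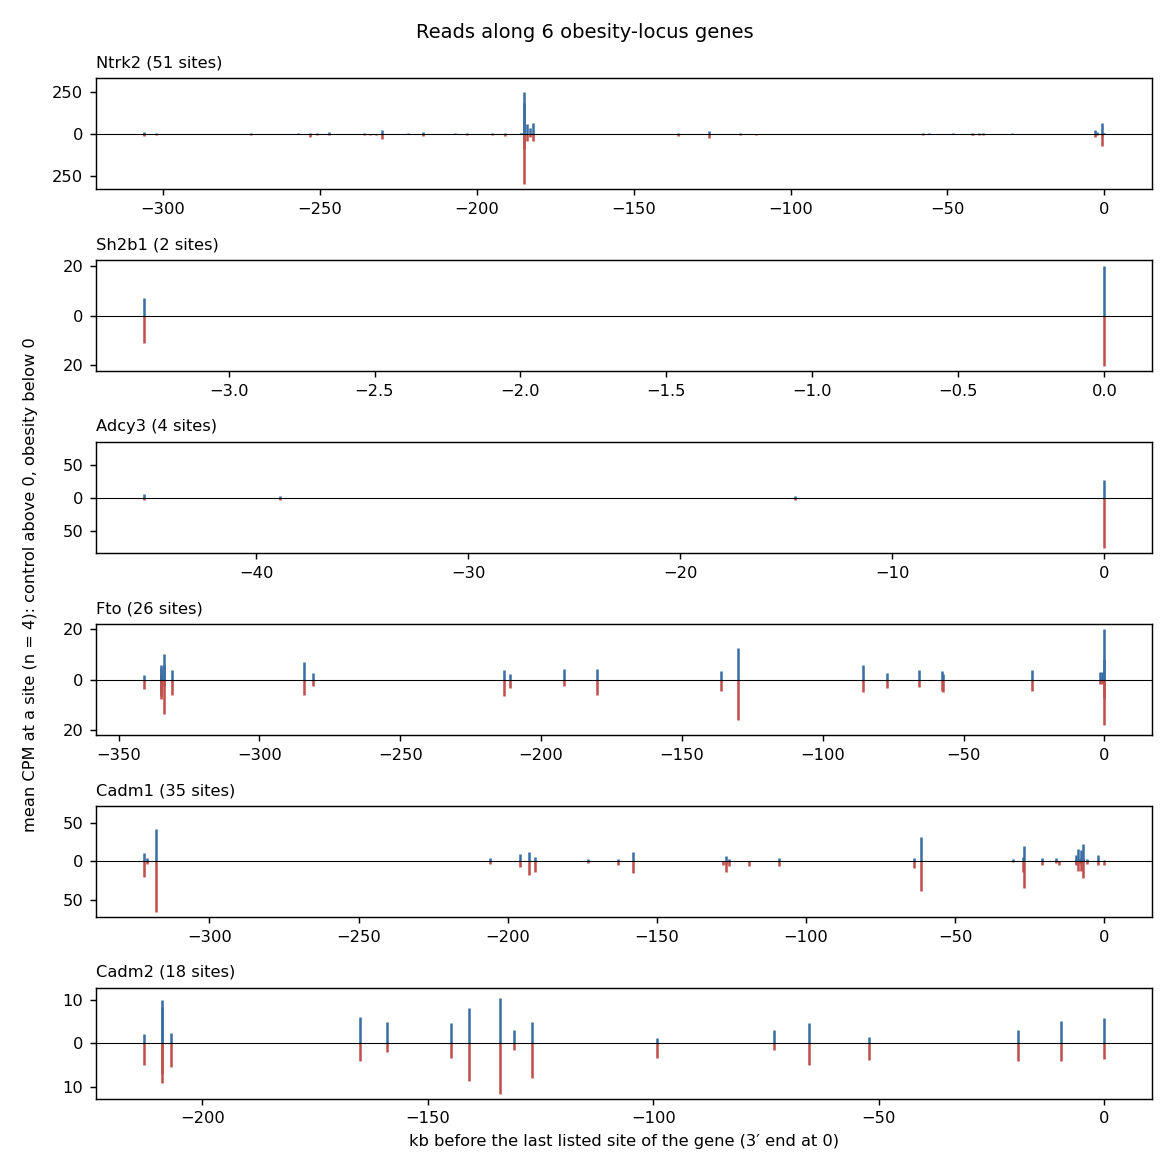
Mean CPM (n = 4) at each site on the strand with most reads, for the 6 genes with 2 or more sites. Control is drawn above 0 and obesity below 0, and the x axis is the distance in kb from the last listed site. Ntrk2 reads peak 185 kb before the last site, the leading Cadm1 site lies 318 kb before it, and Adcy3 reads lie mostly at the last site.

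The second Ntrk2 site had the lowest unadjusted p of the 141 sites in both edgeR fits, and it was lower in obesity. Its reads were 368, 280, 203 and 316 in control and 177, 114, 200 and 148 in obesity. All 4 obesity libraries lay below all 4 control libraries in CPM, with means of 181 ± 30.8 in control and 90.8 ± 11.5 in obesity (SD, n = 4). The log2 fold change was -1.0 (SE 0.28, 95% interval -1.6 to -0.39, unadjusted p 0.00333), and it did not pass after adjustment (edgeR adjusted p 1). With the block the unadjusted p was 0.000213 and the edgeR adjusted p 0.241.

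The leading site next to it had 347, 380, 396 and 424 reads in control and 344, 384, 842 and 549 in obesity. Its means of 246 ± 46.3 and 299 ± 96.9 CPM overlapped between the groups (log2 fold change 0.28, SE 0.3, edgeR adjusted p 1). When sites within 50 bases were merged, which joined these 2 sites and left 134 sites in the set, the log2 fold change of the merged site was -0.15 (SE 0.26, edgeR adjusted p 1). With merging and the block it was -0.18 (SE 0.19, edgeR adjusted p 0.973). The second site took 51.5%, 42.4%, 33.9% and 42.7% of the reads of the pair in control and 34%, 22.9%, 19.2% and 21.2% in obesity. Obesity library 1 lay just inside the control range and the other obesity libraries below it. The share was 42.6 ± 7.18% against 24.3 ± 6.61% (SD, n = 4), a difference of -18.3 percentage points (2-sided exact permutation test, p = 0.0571), and it was lower in obesity in all 4 same-number pairs.

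**Figure D4:**
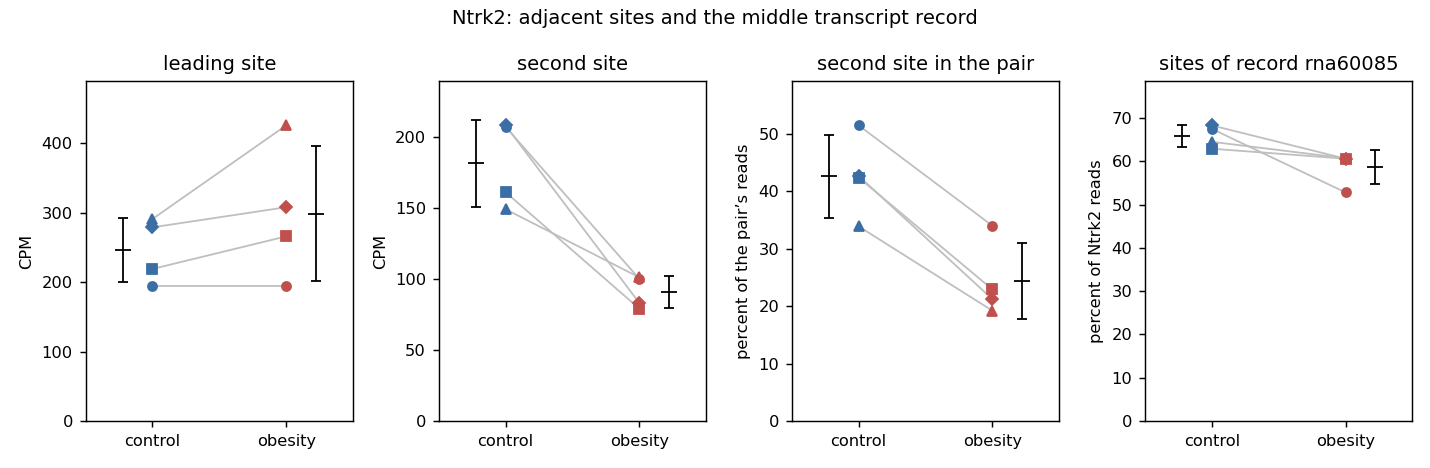
Ntrk2 in the 4 control (blue) and 4 obesity (red) libraries, with grey lines joining the same number and black bars for the mean ± SD (n = 4). The panels give CPM at the leading and the second site, the percent of the pair's reads at the second site, and the percent of Ntrk2 reads at sites of record rna60085. The second site is lower in all 4 obesity libraries, while the leading site overlaps between the groups.

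The share of Ntrk2 reads at sites of record rna60085 was 67.5%, 62.9%, 64.5% and 68.3% in control and 52.8%, 60.6%, 60.7% and 60.6% in obesity. The groups did not overlap, with means of 65.8 ± 2.54% and 58.7 ± 3.9% (SD, n = 4). The difference of -7.12 percentage points had a 2-sided exact permutation p of 0.0286, the smallest that 4 against 4 can give. That test does not use the numbers. Exchanging labels within the 4 same-number pairs, where the share was lower in obesity in all 4, gave an exact permutation p of 0.125, the smallest that 4 pairs can give. The second site belongs to this record, so both measures share reads. Without obesity library 1 the difference was -5.17 points (exact permutation p = 0.0571). The share of record rna60079 was 23.9 ± 4.25% in control and 30.9 ± 2.35% in obesity (n = 4, exact permutation p = 0.0571), and that of record rna60082 was 10.3 ± 2.81% and 10.4 ± 4.2% (n = 4, exact permutation p = 0.971). These groupings by record and by pair were chosen after the values were seen. The 10 shares compared here and below were not adjusted for their number.

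Of the other named Ntrk2 sites, the one at 6186344 to 6186355 had 6, 3, 13 and 13 reads in control and 18, 11, 55 and 38 in obesity. Its groups overlapped by obesity library 2 (log2 fold change 1.54, SE 0.63, edgeR adjusted p 1, with the block 0.49). A low site at 5933332 to 5933333 had 13, 2, 18 and 3 reads in control and 0, 1, 2 and 0 in obesity, without overlap in CPM (log2 fold change -3.57, SE 1.21, edgeR adjusted p 1, with the block 0.607). The third site by reads had 172, 113, 58 and 92 reads in control and 187, 69, 155 and 84 in obesity, with a log2 fold change of 0.07 (SE 0.38). On the opposite strand, 1 site (6020348 to 6020354) held 38 reads in all.

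Sh2b1, the adaptor of leptin and insulin signalling, had 2 sites on the minus strand of chromosome 1, 3.29 kb apart. The last one (197878839 to 197878860) held 68.7% of the reads and the first (197882131 to 197882133) 31.3%, and the table assigns them to different transcript records. The summed reads were 59, 33, 56 and 22 in control and 56, 23, 73 and 71 in obesity. Both groups contained high and low libraries, and obesity was higher in 2 of 4 pairs. Means were 31.5 ± 14.3 and 38 ± 13.2 CPM (SD, n = 4), giving a log2 fold change of 0.27 (95% interval -0.55 to 1.1, edgeR adjusted p 0.983).

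Adcy3, the cyclase, had 4 sites on the plus strand of chromosome 6 between 28592479 and 28637816. Its summed reads were 122, 44, 36 and 49 in control and 358, 40, 145 and 84 in obesity. Control library 1 stood above the rest of its group and obesity library 1 above all others, while obesity library 2 lay among the low control libraries. Means were 45.6 ± 27.5 and 111 ± 108 CPM (SD, n = 4), and the log2 fold change was 1.28 (SE 0.64, 95% interval -0.16 to 2.72, edgeR adjusted p 0.921). The obesity library was the higher in 4 of 4 same-number pairs. With the block the log2 fold change was 1.04 (SE 0.26, unadjusted p 0.000373, edgeR adjusted p 0.103), just outside the threshold.

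The value for Adcy3 depended on single libraries. Without obesity library 1 the log2 fold change was 0.36, and without control library 1 it was 1.79. In the fit with the block, leaving out both libraries numbered 2 gave 1.29 with an edgeR adjusted p of 0.00242, where 4.59% of all genes passed. The same fit called Cadm1 (log2 fold change 0.46, edgeR adjusted p 0.0783), the Adcy3 site described next (1.51, adjusted p 0.0261) and the second Ntrk2 site (-0.98, adjusted p 0.0751), against 0.495% of all sites. Leaving out the libraries numbered 1, 3 or 4 gave adjusted p-values for Adcy3 of 0.441, 0.506 and 0.496 and called 0 of the 7 genes.

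The last Adcy3 site (28637798 to 28637816) carried 82.3% of the reads. It had 85, 31, 22 and 36 reads in control and 337, 29, 121 and 62 in obesity, with obesity library 1 again the highest (log2 fold change 1.53, SE 0.61, edgeR adjusted p 1, with the block 0.338). Without obesity library 1 the log2 fold change of the site was 0.53, and without control library 1 it was 2.02. Its share of the gene was 68.7 ± 5.3% in control and 81 ± 10% in obesity, higher in 4 of 4 pairs (n = 4, exact permutation p = 0.0571). The sites at 28592479 to 28592485 and 28623167 to 28623213 held 7.4% and 5.47% of the reads, with log2 fold changes of -0.89 (SE 0.91) and 0.67 (SE 1.03).

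Fto, the RNA demethylase, had 26 sites on the minus strand of chromosome 19 between 16772747 and 17113880, a span of 341 kb, all assigned to 1 transcript record. The summed reads were 173, 188, 221 and 240 in control and 261, 194, 315 and 292 in obesity. Control libraries 1 and 2 were the lowest in CPM and the groups overlapped, although obesity was the higher in 4 of 4 pairs. Means were 153 ± 32.9 and 184 ± 18.8 CPM (SD, n = 4), giving a log2 fold change of 0.27 (SE 0.21, 95% interval -0.18 to 0.73, edgeR adjusted p 0.942, with the block 0.572).

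Reads of Fto were spread along the gene. The last site (16772747 to 16772757) led with 12.8%, a site 130 kb before it (16902637 to 16902643) held 10.4%, and one 334 kb before it (17107060 to 17107065) held 8.49%. The last site had 20, 32, 51 and 20 reads in control and 21, 53, 25 and 19 in obesity, so that control library 3 and obesity library 2 stood out (log2 fold change -0.16, SE 0.54). The sites 130 kb and 334 kb upstream had log2 fold changes of 0.36 (SE 0.57) and 0.43 (SE 0.52). On the opposite strand, 1 site (16876848 to 16876855) held 113 reads, with 18, 19, 9 and 9 in control and 12, 10, 24 and 12 in obesity.

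Cadm1, the synaptic adhesion gene, had 35 sites on the plus strand of chromosome 8 between 51876496 and 52198647. Its summed reads were 364, 497, 331 and 621 in control and 426, 475, 649 and 1028 in obesity. Library 4 was the highest of each group, and the obesity library was the higher in CPM in 4 of 4 pairs. Means were 333 ± 98.4 and 446 ± 171 CPM (SD, n = 4), giving a log2 fold change of 0.42 (SE 0.26, 95% interval -0.12 to 0.97, edgeR adjusted p 0.928). With the block it was 0.40 (SE 0.14, unadjusted p 0.00852, edgeR adjusted p 0.275). Without the block, leaving out obesity library 4 gave 0.13 and leaving out control library 4 gave 0.64.

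The leading Cadm1 site (51880684 to 51880704) lay near the 5′ end of the listed span, 318 kb before the last site, and held 16.7% of the reads. It had 69, 78, 53 and 68 reads in control and 91, 66, 162 and 146 in obesity, and in CPM all obesity libraries lay above all control libraries. The means were 41.9 ± 3.44 and 65.3 ± 19.4 CPM (SD, n = 4), and the log2 fold change was 0.64 (SE 0.34, edgeR adjusted p 1). With the block it was 0.6 (SE 0.29, unadjusted p 0.0461, edgeR adjusted p 0.807). The second site (52136993 to 52137039, 10.6% of reads) was highest in both libraries numbered 4, with 14, 27, 25 and 128 reads in control and 34, 41, 35 and 160 in obesity. The third (52171665 to 52171697, 8.36%) differed by 0.80 on the log2 scale (SE 0.43, edgeR adjusted p 1). With the block the difference was 0.82 (SE 0.34, unadjusted p 0.0226, edgeR adjusted p 0.723).

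Low Cadm1 sites differed most in relative terms. The site at 52079966 to 52079974 had 0, 1, 1 and 0 reads in control and 8, 3, 6 and 23 in obesity (log2 fold change 3.87, SE 1.18, unadjusted p 0.00529, edgeR adjusted p 1, with the block 0.602). The site at 52191628 to 52191640 had 16, 7, 3 and 6 in control and 0, 2, 0 and 0 in obesity (log2 fold change -3.67, SE 1.28, edgeR adjusted p 1, with the block 0.601). They lay 119 and 7.02 kb before the last site and held 0.957% and 0.774% of the gene's reads. On the opposite strand, 2 sites together held 114 reads, of which the one at 52088106 to 52088131 had the most. The other, at 52198605, had 1, 1, 1 and 0 reads in control and 28, 0, 18 and 0 in obesity.

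Cadm2, its paralogue, had 18 sites on the minus strand of chromosome 11 over 213 kb. Its summed reads were 171, 148, 107 and 149 in control and 207, 124, 110 and 190 in obesity. Libraries numbered 1 were the highest and those numbered 3 the lowest in CPM in both groups. The means of 105 ± 15.2 and 112 ± 39.1 CPM (SD, n = 4) gave a log2 fold change of 0.10 (95% interval -0.46 to 0.65, edgeR adjusted p 0.991). The sites with most reads (4313620 to 4313629, 4388627 to 4388628 and 4320288 to 4320290) held 12.4%, 9.87% and 9.29% and had log2 fold changes of 0.15 (SE 0.48), 0.15 (SE 0.68) and 0.08 (SE 0.53).

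**Figure D5:**
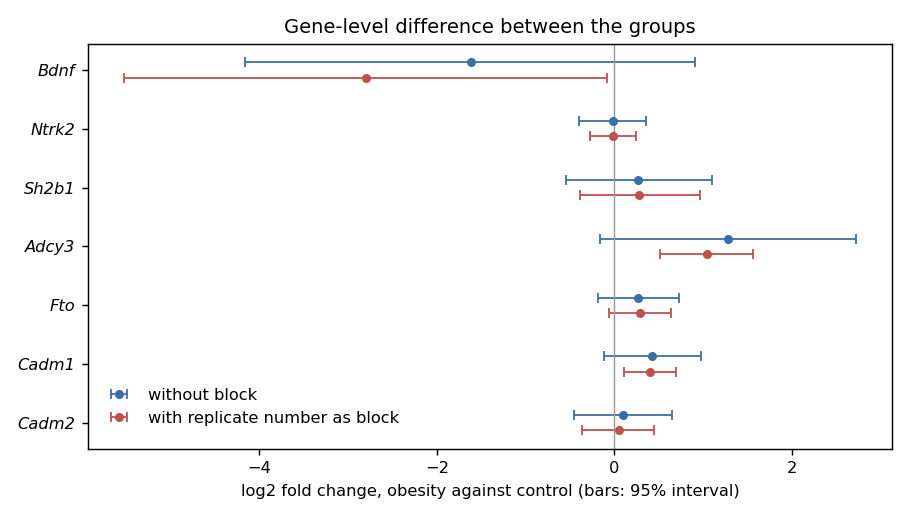
Log2 fold change of the gene sums, obesity against control (x axis), with 95% intervals from edgeR, for the fit without the block (blue) and with the replicate number as a block (red). Without the block all 7 intervals include 0, and with it those of Adcy3, Cadm1 and Bdnf do not.

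The way sites divide the reads of a gene was tested for the 6 genes with 2 or more sites. By diffSpliceDGE of edgeR, 0 of 6 passed an adjusted p of 0.1, against 0% of 7996 genes, and 0 of 6 had a Simes p under 0.05, against 1.39%. With the block 0 of 6 passed, against 0.0125%. The lowest Simes p was 0.172, for Adcy3, without the block and 0.083, for Cadm1, with it. Leading-site shares of the 4 genes not yet given were 15 ± 6.47% against 12.5 ± 9.94% for Fto (n = 4, exact permutation p = 0.657), 15.4 ± 3.31% against 18.6 ± 5.46% for Cadm1 (n = 4, exact permutation p = 0.343), 11.6 ± 1.71% against 13.2 ± 3.83% for Cadm2 (n = 4, exact permutation p = 0.486) and 76.2 ± 10.5% against 67.2 ± 9.24% for Sh2b1 (n = 4, exact permutation p = 0.257). That of Ntrk2 was 27.1 ± 3.77% against 34.2 ± 7.05% (n = 4, exact permutation p = 0.143).

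The genes with many sites had reads spread along the gene, as was usual among genes whose sites spanned at least 200 kb. The choice of genes did not use this spread. Ntrk2, Cadm1, Fto and Cadm2 had 51, 35, 26 and 18 sites, where the median gene had 2. Over the 611 genes whose sites spanned at least 200 kb, as theirs did, the median was 20 sites. Ntrk2, Cadm1 and Fto lay above that median and Cadm2 below it. Of the reads of these genes, in the same order, 13.3%, 2.82%, 21.7% and 5.14% lay within 5 kb of the last listed site. The median was 11.9% over the 611 genes whose sites spanned at least 200 kb, and 58.4% over the 7996 genes with 2 or more sites. The remaining genes were compact, with 82.3% for Adcy3 and 100% for Sh2b1. The Cadm1 value depends on its last listed site (52198643 to 52198647), which had reads only in the libraries numbered 4. The Cadm1 site at 52191555, with 6.56% of the reads of the gene, lay 7.09 kb before it and so outside the 5 kb. Sites were not classed as exonic or intronic, and whether upstream ends were primed inside A-rich stretches of RNA was not tested.

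Genes of the same pathways were looked at as lists. Of 20 neurotrophin signalling genes, 15 had sites, 0 reached an adjusted p under 0.1 in edgeR and the median log2 fold change was 0.07, against 0.00 over all genes. At an unadjusted p under 0.05, 0 were higher, against 2.54% of all genes, and 1 was lower, against 2.58%. This was Mapk3, which encodes the kinase ERK1. It had 36, 50, 76 and 24 reads in control and 4, 32, 24 and 23 in obesity (log2 fold change -1.24, edgeR adjusted p 0.921, with the block 0.23). The receptor gene Ntrk3 and the receptor scaffold gene Kidins220, with most reads, had log2 fold changes of 0.34 (SE 0.21) and -0.14 (SE 0.27).

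In the other pathway lists, 0 genes passed the adjusted threshold as well, with or without the block. At an unadjusted p under 0.05 in edgeR, 2.54% of all genes were higher and 2.58% lower. With the block these shares were 4.76% and 6.16%. Of 20 cAMP genes, all 20 had sites, 1 was higher and 0 lower at an unadjusted p under 0.05, and the median log2 fold change was 0.14. Gnas (stimulatory G protein) and Pde4b (a phosphodiesterase) had 0.10 (SE 0.17) and 0.06 (SE 0.18). The gene that was higher was Rapgef4 (0.56, SE 0.24, edgeR adjusted p 0.921). With the block Rapgef4 was again the 1 higher gene (0.55, SE 0.22, edgeR adjusted p 0.348). The cyclase gene Adcy1 was then the 1 lower gene (-1.03, SE 0.44, edgeR adjusted p 0.376). Of 12 listed genes of the Sh2b family and of leptin and insulin signalling, 0 passed that limit, with a median of 0.19, and Ptpn11 (the phosphatase SHP2) and Pik3r1 (a regulatory subunit of PI3-kinase) had -0.33 (SE 0.46) and -0.02 (SE 0.2). With the block 1 was lower at that limit, Ptpn11 (-0.42, SE 0.16, edgeR adjusted p 0.331). Of 10 listed genes of N6-methyladenosine in RNA, 0 passed, with a median of 0.14, and the writer subunit Zc3h13 and the reader Ythdc1 had 0.21 (SE 0.27) and -0.09 (SE 0.25). With the block 1 was higher, the reader gene Ythdf2 (0.54, SE 0.24, edgeR adjusted p 0.406).

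Of 5 listed neighbours of Fto in the genome, 0 passed, with a median of -0.08, and Rpgrip1l and Rbl2 had 0.41 (SE 0.31) and -0.06 (SE 0.27). Of 5 listed Cadm and nectin genes, 0 passed, with a median of -0.19, and Cadm3 and Cadm4 had -0.19 (SE 0.24) and -0.43 (SE 0.23). Of 18 listed genes at other human body-weight loci, 2 were higher, against 2.54% of all genes, and 0 lower, against 2.58%. The median was 0.14. The 2 were Sim1 and the kinase gene Map2k5 (log2 fold change 0.66, SE 0.3, edgeR adjusted p 0.921). Sim1, a transcription factor of the paraventricular nucleus, had 0, 5, 2 and 10 reads in control and 16, 4, 27 and 31 in obesity, with obesity library 2 inside the control range (log2 fold change 2.03, SE 0.82, edgeR adjusted p 0.921, with the block 0.279). The genes Nrxn3 and Lrp1b, with most reads of that list, had 0.26 (SE 0.18) and 0.18 (SE 0.17). With the block the same 2 were higher, against 4.76% of all genes, and Map2k5 had 0.64 (SE 0.27, edgeR adjusted p 0.379). With it 1 was lower, against 6.16%, the melanocortin precursor gene Pomc (-1.05, SE 0.43, edgeR adjusted p 0.347). Ythdf2, Rapgef4, Adcy1, Map2k5 and Pomc, like Th, Slc18a2, Ddc, Nr4a2, Avp, Mbp and S100b above, were named after their values were seen.

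Across the 8 libraries, the genes with a profile of log2 CPM most like each member were found by Pearson's r among genes with a mean of at least 10 CPM. They were Fat3 (0.978) and Ank3 (0.963) for Adcy3, Prelid3a (0.974) and NEWGENE_1310139 (0.957) for Cadm1, and Cacul1 (0.96) and LOC102551403 (0.959) for Fto. For Cadm2 they were Src (0.967) and Larp6 (0.949), for Sh2b1 Akap8l (0.968) and Stambp (0.959), for Ntrk2 Magel2 (0.934) and Kpna5 (0.923), and for Bdnf Ankrd40 (0.948) and Ivd (0.935). These are the highest of about 8301 values each, over libraries that share depth and number, and are given as a description. Above 0.9 lay 60 genes for Adcy3 and 5 for Bdnf.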

How the data were processed

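WTTS-seq libraries from 8 rats were used, 4 control and 4 obesity, as the labels group them. The deposited table gave raw counts of mapped reads at each polyadenylation site, not normalized. The submitters' processing notes name Bowtie2 2.2.3 and the Rnor_6.0 rat assembly, on which all coordinates are given as deposited. How sites were clustered, assigned to genes and cut at 30 reads was not given in the sources used here. A line without a site was left out, and 8009 sites without a gene (273 with a mark in place of a symbol) stayed in the site fit only.

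Counts were tested with edgeR 4.0.16 in R 4.3.3 (robust quasi-likelihood F test, TMM), over all 73922 sites, over 12255 genes (sums on the strand with most reads), and with diffSpliceDGE over 7996 genes, with Benjamini-Hochberg adjustment over each whole table and a threshold of 0.1. CPM of genes is scaled to the total of the gene sums. Shares were tested by exact 2-sided permutation over 70 arrangements. DESeq2 1.42.0, other size factors, filterByExpr, summing both strands, merging of sites, the replicate block and left-out libraries were alternatives. Merging of sites within 50 bases, left-out libraries for the Ntrk2 record and pair shares, exchange of labels within same-number pairs, and leaving out a number from both groups with the block were chosen after seeing the data. The scripts were tested on simulated data.

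The numbers pair the libraries: departures of log2(CPM + 1) from the mean of each group, over 8302 genes with a mean of at least 10 CPM, correlated at 0.271 to 0.397 between same-numbered libraries and at -0.226 to 0.0944 between others. Without the block, p-values and intervals from edgeR measure the spread between the libraries of a group and do not use this pairing. With the block they measure the spread left after differences between numbers are taken out. Reads carry no molecular identifiers, and the floor set for libraries without a Bdnf read covers counting error only.

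Members, lists and tests were chosen with earlier results of these data known. All members were named. Named sites were the 3 with most reads per gene, any with an unadjusted p under 0.01 with or without the block, and the leading opposite-strand site. Further sites were chosen after their values were seen. From each pathway list the 2 genes with most reads and any with an unadjusted p under 0.01 in either fit were named, and marker lists were summed. The paper linked to these libraries describes another exposure, and only the labels' groups were used.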

Additional observations from a re-analysis of the deposited data

Results flagged for a closer look

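In groups of 4 libraries, 1 library was set apart from the other 3 of its group (Dixon's test at the 95% level) in 14 of 86 checks over 43 items, where chance gives about 1 in 20. Obesity library 2 accounted for 5, control library 1 and obesity library 3 for 3 each, and control library 4, obesity library 1 and obesity library 4 for 1 each. Items of one gene share reads. The rate of 1 in 20 is for continuous values. Where the other 3 libraries held no read, any read set a library apart, as for Bdnf and the Cadm1 site at 52191628.

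Bdnf had 7.62 CPM as a gene and 6.58 CPM at its single site in obesity library 3, against 0 in the other obesity libraries. Adcy3 had 86.4 CPM in control library 1, against 29.3 to 37.2 in the others, and its site at 28592479 had 13.5 CPM there, against 3.45 to 4.61.

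The last Fto site (16772747) had 36.7 CPM in obesity library 2, against 10.7 to 12.7, so that its share of Fto reads there was 27.3%, against 6.51% to 8.05%. The Fto site at 17107060 had 9.7 CPM in obesity library 2, against 14.7 to 15.3, and the opposite-strand site at 16876848 had 12.1 CPM in obesity library 3, against 6.73 to 6.93.

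The Cadm1 site at 52136993 was set apart in both libraries numbered 4, with 84.3 CPM in control, against 7.88 to 18.4, and 89.7 CPM in obesity, against 17.7 to 28.4. The Cadm1 site at 52191628 had 1.39 CPM in obesity library 2, against 0. The Cadm2 site at 4388627 had 16.9 CPM in control library 1, against 4.4 to 5.93.

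For Ntrk2, the opposite-strand site at 6020348 had 8.31 CPM in obesity library 2, against 1.12 to 1.52, and sites of record rna60085 held 52.8% of the reads in obesity library 1, against 60.6% to 60.7%.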

How the results depend on the processing

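In fits with all libraries the counts of calls over the 141 sites, the 7 genes and the 6 genes tested for site usage were 0 under all alternatives. Leaving out 1 library, or both libraries of a number with the replicate block, gave 0 to 2 called sites and 0 to 2 called genes, with both values of 2 from leaving out number 2. The leading-site shares with an exact permutation p under 0.05 numbered 0 to 1 when 1 library was left out, the 1 being Adcy3 without obesity library 2 (15.1 percentage points, p = 0.0286). The replicate block changed no call of a member site, member gene or its site usage. Exchanging labels within same-number pairs, which cannot give a p below 0.125, left 0 of the 10 shares under 0.05, where the test without pairs had 1. After filterByExpr, 51 of the 141 sites and 6 of the 7 genes were left, without Bdnf.

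The directions of the following values turned, none of them past a threshold. Merging sites within 50 bases gave -0.15 for the leading Ntrk2 site (6117537), and -0.18 with the replicate block, since it then included its neighbour, while leaving out libraries gave 0.06 to 0.42. Leaving out libraries or numbers gave log2 fold changes of -0.1 to 0.29 for Cadm2, -0.08 to 0.5 for Sh2b1 and -0.1 to 0.07 for Ntrk2. For sites the ranges were -0.77 to 0.34 (Fto 16772747), -0.36 to 0.16 (Fto 16876848), -0.53 to 1.46 (Cadm1 52136993), -0.93 to 0.01 (Cadm1 52088106), -0.65 to 0.8 (Cadm2 4388627), -0.1 to 0.21 (Cadm2 4320288), -0.24 to 0.23 (Sh2b1 197878839), -1.11 to 1.24 (Ntrk2 6020348), -0.22 to 0.33 (Ntrk2 5933749), -1.44 to 0.16 (Adcy3 28592479) and -0.39 to 1.23 (Adcy3 28623167). For shares they were -7.5 to 0.147 points (Fto leading site), -0.0443 to 3.06 (Cadm2 leading site) and -1.68 to 1.46 (Ntrk2 record rna60082). Why single libraries moved these values was not tested. Bdnf, with 47 reads over all libraries, and sites near the minimum of 30 reads rest on few reads.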
